A study of Mus musculus with 2 samples.

Results

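The arrays carried 16181 probes that are named by a genome span instead of a transcript, and these intergenic noncoding RNA probes are described here. They were chosen by their annotation alone, as non-control probes whose name gives a chromosome, a start, an end and a strand (F or R) on the mouse build mm9, and they are part of 55677 probes in all. They name 4607 spans. Spans that overlap by at least 1 base were joined into 2223 regions, and the probes of 1 region on 1 strand form a region strand, of which there are 3324. The study set liver RNA of wild-type (WT) mice beside that of CREBH-Tg mice, both on the C57B6J background and both kept on the HFHS diet for 12 weeks. The transgene is a human cDNA for the active form of CREBH, a liver-enriched transcription factor, and its expression is mainly hepatic. Each genotype was 1 pool of livers on 1 Agilent array, and the sources used here do not give the number of mice in a pool. No spread between animals or pools was therefore measured, no test was possible, and every difference below is a size only.

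Long intergenic noncoding RNAs are transcripts without a protein product whose genes lie between protein-coding genes. They are often spliced and polyadenylated like messenger RNA, are known for low abundance and strong tissue specificity, and many stay in the nucleus, where some act as scaffolds or regulate nearby genes. Liver has several that are known to respond to diet and to lipid and bile acid metabolism. The probe names give no transcript name, function or exon structure for the spans, so regions are identified below by position, and no gene is assigned to any of them.

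Signals are the log2 of the processed intensity relative to the 75th percentile of each array, so a signal of 0 lies at that percentile. A log2 ratio is the CREBH-Tg signal minus the WT signal, and 1 corresponds to 2-fold. A probe was called measured where it was well above background on both arrays. The 75th percentile itself stood at an intensity of 333 (WT) and 309 (CREBH-Tg), and 0 spots were saturated. All 5 hepatocyte markers (Alb, Apoa1, Ttr, Cyp2e1 and Serpina1a) had signals between 8.18 and 10.7 on both arrays. Of 13 markers of other cell types that had a probe, 10 were measured, with signals up to 5.55, and 1 of them, the adipocyte gene Adipoq, was at least 2-fold apart, at -3.60 in WT and -1.40 in CREBH-Tg. The adipocyte marker Plin1 was not measured, and the part of other cells in the results below was not tested. The probe for mouse Creb3l3, the gene that encodes CREBH, read 6.97 on both arrays. The transgene is a human cDNA, so this probe does not check the labels. In pooled tissue RNA, fewer cells of a type and less RNA per cell cannot be told apart.

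Intergenic probes were measured less often than the rest of the array. On both arrays 5717 of the 16181 probes were measured (35.3%), against 59.8% of the 39496 other probes. Another 389 were above background in WT alone, 946 in CREBH-Tg alone, and 9129 (56.4%) in neither. At least 1 probe was measured in 1613 regions (72.6%) and in 2295 region strands (69.0%). Their signals were low: the median over measured span probes was -1.97 in WT and -2.04 in CREBH-Tg, while other measured probes had medians of 0.14 in both. When all measured probes were cut into 3 equal classes by mean signal, the dimmest class held 56.7% of the intergenic probes, the middle 31.3% and the brightest 12.0%, against 27.7%, 33.8% and 38.5% of the others.

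The brightest region strands were nearly level between the genotypes. The 10 with the greatest mean signal had CREBH-Tg signals between 5.87 and 8.37, and 9 of these 10 rested on 1 measured probe. The brightest, chrX:18744367-18853992 on strand F, read 8.28 in WT and 8.37 in CREBH-Tg, with 1 of its 4 probes measured. The next, chr5:26323150-26357875 on strand R, read 7.53 and 7.62, again from 1 of its probes. chrX:138967807-138968413 on strand R had 2 measured probes, at ratios of 0.17 and 0.18. Among the 10, 9 had ratios between 0.075 and 0.18, and chr4:141527564-141547339 on strand F was lower in CREBH-Tg, at -0.26. For 4 of these 9, quantile normalization or loess gave a ratio below 0, at -0.041 for chrX:18744367-18853992, -0.0096 for chr5:26323150-26357875, -0.0041 for chr2:60531602-60543635 and -0.0034 for chr12:119825125-119850750, so their small differences have no settled direction. With no filter on dim probes chr5:26323150-26357875 went to -0.98 and chrX:138967807-138968413 to -0.13.

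Across the genotypes few intergenic probes were far apart, and more of these were lower in CREBH-Tg than higher. Of the 5717 measured probes, 31 were at least 2-fold higher in CREBH-Tg (0.542%) and 99 at least 2-fold lower (1.73%). Over all 29342 measured probes of the array the same shares were 0.566% higher and 0.975% lower. By region strand, where the log2 ratios of measured probes were averaged, 5 of 2295 were at least 2-fold higher (0.218%) and 29 lower (1.26%). Over all 22199 units of the array, where other probes were joined by annotation name, these shares were 0.545% and 0.811%. At least 3 measured probes entered 781 of the 2295 region strands and 1193 of the 22199 units, so the units are unlike. The median ratio was -0.049 over region strands and 0.012 over all units. Scaling by the median instead shifted every ratio by 0.089 and turned the median of the region strands to 0.040. Such a shift cannot change the distance of -0.061 between the median of region strands and that of all units. Settings that can change this distance gave -0.021 (quantile normalization), -0.036 (loess) and -0.020 (normexp). It was -0.039 with a stricter filter on dim probes and -0.12 with no filter.

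Most of the lower probes were dim. The dimmest class held 86 of the 99 lower and 16 of the 31 higher intergenic probes. Within it, 2.65% of intergenic probes and 2.14% of the others were at least 2-fold lower, and 0.494% and 0.994% at least 2-fold higher. In the middle class 11 intergenic probes were higher and 11 lower (0.614% each, against 0.563% and 0.413% of the others). In the brightest class 4 were higher and 2 lower (0.585% and 0.292%, against 0.275% and 0.154% of the others). Of 1393 intergenic probes brighter than the median of all measured probes, 5 were higher (0.359%) and 10 lower (0.718%). Over all 14671 probes brighter than that median these shares were 0.341% and 0.204%. The faintest signal called well above background was -4.13 in WT and -4.55 in CREBH-Tg, so a dim probe could reach lower values in CREBH-Tg before it dropped out of the comparison. Its part in the lower count was not tested. With normexp background correction, 4 region strands were at least 2-fold higher and 1 lower, and these 5 were all among the 34 of the main setting. Normexp was run with an offset of 50 added to each intensity, which pulls the ratios of dim probes toward 0. A 2-fold call of a dim probe can therefore be lost to the offset alone, here and in the normexp values below.

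The only error that can be measured is that of spots. Probes spotted at least 5 times on each array gave an SD of single-spot log2 ratios of 0.23 in the dimmest class, 0.11 in the middle and 0.054 in the brightest, and 95% ranges of ±0.44, ±0.22 and ±0.11. Each intergenic probe was spotted once. Spot noise leaves out differences between animals, pools, labelling and hybridisation. In the brightest class 204 of 684 intergenic probes lay above this range (29.8%) and 94 below it (13.7%), against 34.1% and 14.9% of other probes.

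**Figure D1:**
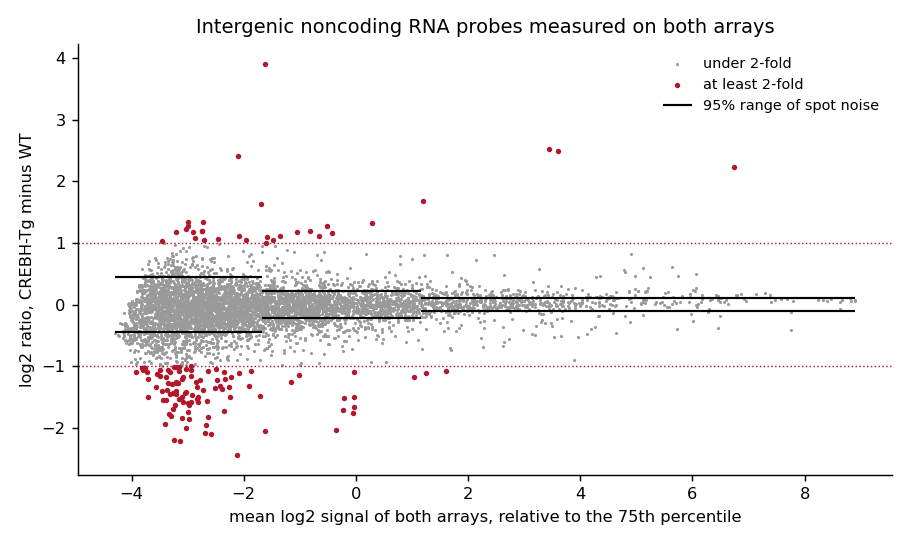
Log2 ratio (CREBH-Tg minus WT) of the 5717 measured intergenic probes against their mean log2 signal. Red points are the 130 probes at least 2-fold apart, red dotted lines mark 2-fold and black lines the 95% range of spot noise in each signal class. Most red points lie low and to the left. Of the probes brighter than the median of all probes, 5 lie above the upper red line and 10 below the lower one.

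Several probes of a span check each other, although they share both samples. Of the 2295 region strands, 965 had 1 measured probe and 1330 had 2 or more. In 500 of the 1330 all measured probes lay on 1 side of 0 (37.6%). Of 781 with at least 3 measured probes, 183 had all of them on 1 side (23.4%). Probes with unrelated signs would also lie on 1 side in part of the region strands. The same shares over the rest of the array are not given here, so these are a description only. The median SD over probes of a region strand was 0.26 in the dimmest class, 0.18 in the middle and 0.095 in the brightest, each above the spot noise SD of its class. Of the 130 probes at least 2-fold apart, 25 were the only measured probe of their region strand. Of the other 105, 31 had another probe at least 2-fold apart, 49 had all other probes on their side of 0, and 12 had none there.

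The greatest mean difference among region strands with at least 3 measured probes lay on chromosome 5. All 4 probes of chr5:15146475-15170100 on strand F were measured. The 3 brighter ones read 0.54, 0.63 and 0.80 in WT and -0.98, -1.08 and -0.86 in CREBH-Tg, and the dimmest read -2.20 and -3.65. Every probe was lower in CREBH-Tg, by log2 ratios from -1.70 to -1.46, with a mean of -1.58 ± 0.12 (SD over 4 probes). Under normexp the mean was -1.10. The neighbouring region on the same strand was mixed. Both probes of its short span chr5:14943275-14944205 read 0.83 and 0.70 in WT and -0.92 and -0.79 in CREBH-Tg, ratios of -1.75 and -1.49. A probe of chr5:15033568-15033987 gave -1.48, while the other measured probe of that span gave -0.17. The remaining 3 measured probes of the region lay at -0.16, 0.14 and 0.93.

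A pair of short spans on chromosome 2 was lower as well. The 3 probes of chr2:67836003-67836461 on strand F read 2.14, 1.62 and 0.51 in WT and 1.07, 0.45 and -0.58 in CREBH-Tg. Their ratios of -1.07, -1.18 and -1.08 lay close together, with a mean of -1.11 ± 0.056 (SD over 3 probes), or 2.16-fold. The span next to it, chr2:67834535-67834914 on the same strand, was dimmer, with WT signals from -2.50 to -1.71, and its 3 probes gave ratios from -1.37 to -0.72. Normexp moved the mean of the brighter span to -0.96, just under 2-fold, and that of the dimmer one to -0.34.

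On chromosome 15 a region was higher in CREBH-Tg. A pair of spans that differ by a few bases at their ends, chr15:32167516-32174427 and chr15:32167516-32174417, carry 10 probes on strand R, of which 9 were measured. Their signals ran from -3.66 to -0.997 in WT and from -2.33 to 0.16 in CREBH-Tg. All 9 were higher, by 0.76 to 1.34, with a mean of 1.02 ± 0.19 (SD over 9 probes), or 2.03-fold. On strand F 2 dim probes gave -0.0039 and 0.61. Under normexp the mean of strand R was 0.66, so all 9 stayed on the same side but the 2-fold call was lost.

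Besides the chromosome 15 region, the only named higher region strand with at least 3 measured probes was on chromosome 17, and its probes lay closer together. The 5 probes on strand R of the region chr17:32035750-32056000 read between 0.38 and 1.77 in WT and between 1.17 and 2.50 in CREBH-Tg. Their ratios ran only from 0.73 to 0.81, a mean of 0.77 ± 0.036 (SD over 5 probes), or 1.71-fold, which is outside the 95% range of spot noise of ±0.11. Both probes on strand F were dim and lay at 0.098 and -0.091. Normexp gave 0.72 for strand R.

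**Figure D2:**
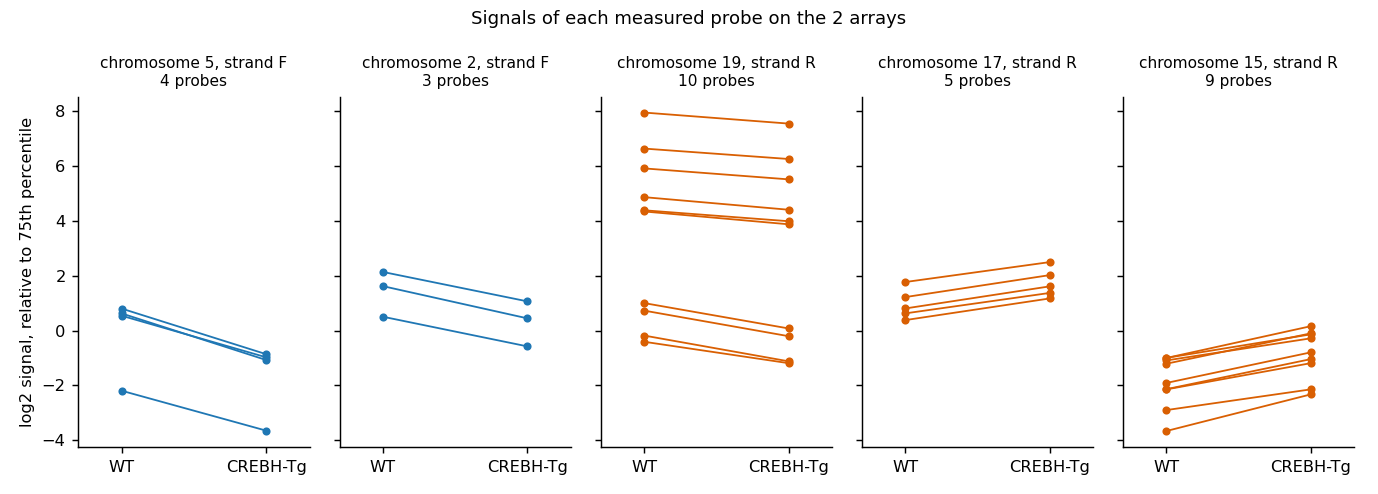
Log2 signal of each measured probe in WT and CREBH-Tg, joined by a line per probe, for the 5 named region strands with at least 3 measured probes and a mean past 1.5-fold; blue is strand F and orange strand R. The lines of each panel run the same way, down in chromosomes 5, 2 and 19 and up in chromosomes 17 and 15.

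The same probes can be read span by span. A search made after the values had been seen took each span with at least 3 measured probes, all on 1 side of 0 and with a mean past 1.5-fold. It kept 18 of 713 spans, 4 higher and 14 lower, and both chromosome 15 spans are among the 4. Of all 1125 annotation names of the array with at least 3 measured probes, 5 were higher (0.444%) and 17 lower (1.51%) by the same rule. The 713 spans are among the 1125 names, and they gave 4 of the 5 and 14 of the 17. Besides those above they include 2 spans of chromosome 6 on strand R. The 3 probes of chr6:31078802-31079644 averaged 2.53 in WT and 1.84 in CREBH-Tg, a ratio of -0.69 ± 0.014 (SD over 3 probes). Those of chr6:31115515-31168433 averaged 0.96 and 0.33, a ratio of -0.63 ± 0.073. Other spans of the region were slightly higher on strand F and mixed on strand R. The 3 probes of chr6:31170350-31287353 on strand F averaged 2.41 and 2.58, a ratio of 0.17 ± 0.042. On strand R the 3 of chr6:31267612-31293337 gave 0.056, 0.057 and 0.59, a mean ratio of 0.23, and 1 probe of chr6:31037606-31037912 gave 0.21. Also on strand R, chr6:31017987-31174287 averaged -0.23 over 3 probes and chr6:31233512-31241062 -0.26 over 2. On chromosome 8 the 5 probes of chr8:26343277-26352902 on strand R averaged -0.76 with an SD of 0.39. Of its inner spans on that strand, chr8:26345571-26346095 had 2 measured probes at -0.039 and 0.030 and chr8:26347473-26348052 had 2 at -1.27 and -0.87, and 2 probes on strand F lay at -0.79 and -0.66.

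The region chr19:5771425-5848475 differed from probe to probe. On strand R all 10 measured probes were lower in CREBH-Tg, with a mean of -0.61 (1.53-fold). They fell into sets by span. The 3 probes of chr19:5801802-5802597 were among the brightest of all intergenic probes, at 5.92, 6.64 and 7.96 in WT and 5.52, 6.26 and 7.55 in CREBH-Tg, with a mean ratio of -0.39 ± 0.012 (SD over 3 probes). Those of chr19:5798135-5800557 averaged 4.54 and 4.09, a ratio of -0.44 ± 0.037. The 3 probes of chr19:5834117-5835940 averaged 0.52 and -0.42 and gave the greatest difference, -0.93 ± 0.0074. Within each of these spans the probes lay closer together than the 95% range of spot noise, and the last differed from the other two by more than that range.

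On strand F of the same region 14 probes were measured. A pair of probes named by the whole span read 5.62 and 2.18 in WT and 7.85 and 4.70 in CREBH-Tg, so they were higher by 2.24 and 2.52. The other 12 ran from -0.51 to 0.087 with a mean of -0.18, and the 3 probes of chr19:5795690-5797464 among them averaged -0.30, so most of strand F lay on the same side as strand R. The arrays name only the span for these probes, so which stretch of it each of them reads is unknown here. Under normexp the greatest ratio on this strand was 2.42.

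**Figure D3:**
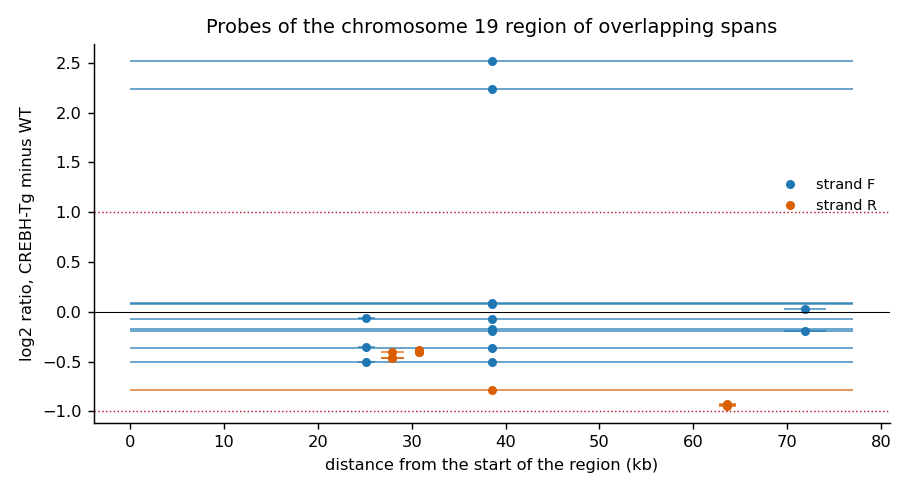
Log2 ratio (CREBH-Tg minus WT) of each measured probe of the chromosome 19 region against the distance from the start of the region in kb. A horizontal line is the span that names the probe, with a point at its middle, blue for strand F and orange for strand R; red dotted lines mark 2-fold, and 2 probes of the long strand F span lie far above all others.

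In some regions a lone probe stood apart from its neighbours. Of the 781 region strands with at least 3 measured probes, 57 had some but not all of them at least 2-fold apart (7.30%), and in 49 of these it was 1 probe. The share over all 1193 such units of the array was 5.2% (62 units). Of those 1193 units 781 are these region strands, and of the 62 units 57 are. The other probes were all on the same side of 0 in 12 of the 57. On chr1:175653557-175672031 strand R, 1 probe of the span chr1:175660642-175671878 read 2.36 in WT and 4.85 in CREBH-Tg, a ratio of 2.48, while the other 10 lay between -0.098 and 0.13. On chr13:70745306-70837331 strand R, 1 probe read 0.66 and -1.37, a ratio of -2.04, while the other 10 lay between -0.23 and 0.52. On chr12:89519675-89533975 strand F, 1 probe was at 1.33 and the other 3 between -0.20 and -0.021.

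The greatest mean ratios of region strands came from those with 1 measured probe. For chr13:98479793-98481177 on strand R it was 3.91 (15.0-fold), with a CREBH-Tg signal of 0.33, and normexp reduced it to 1.92. chr17:9898206-9919226 on strand R gave 2.41 from a CREBH-Tg signal of -0.90, and chr14:70483555-70484159 on strand F gave 1.28 from 0.13. Under normexp these were 1.19 and 1.01, and with no filter on dim probes -0.21 and 0.66, while the chromosome 13 value was 0.14 without the filter. chr5:33773842-33942967 on strand F was brighter, at 0.36 in WT and 2.03 in CREBH-Tg, a ratio of 1.67 from 1 of 9 probes, while its strand R probes lay between -0.32 and 0.31. With no filter it went to -0.15. Of the 10 lowest region strands 8 rested on 1 probe, 9 were in the dimmest class, and the lowest was chr13:67802775-67829550 on strand F, at -2.19 with a CREBH-Tg signal of -4.34. It was at -0.74 under normexp and at -0.15 with no filter, and of the 10 lowest only the chromosome 5 region stayed past 2-fold under normexp.

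Among region strands brighter than the median of all measured probes, the highest after those of chromosomes 5 and 17 were chr18:47313842-47315840 on strand F at 0.61, with a CREBH-Tg signal of 5.94, chr6:92040526-92041319 on strand F at 0.60 from 5.41, and chr8:35143801-35144482 on strand F at 0.52 from 1.97. Each rested on 1 of 3 probes, and with no filter on dim probes they went to 0.25, -0.73 and -0.13. Those values include unmeasured probes, which gave 0.58 and -0.44 on chromosome 18, -1.83 and -0.95 on chromosome 6, and -0.42 and -0.48 on chromosome 8. All of these lay near background on both arrays, so the values without the filter say little of the regions. Next to the chromosome 2 and 19 regions, the lowest were chr13:24613384-24613726 on strand R at -0.67, chr11:96111499-96126224 on strand R at -0.59 and chr1:193815525-193825775 on strand F at -0.56. The chromosome 11 value averages 2 probes at -0.97 and -0.20, and it was -0.29 with no filter.

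Some region strands were measured on 1 array only, which gives a bound. There were 168 with signal in CREBH-Tg alone, 4 of them at least 2-fold higher than the faintest signal above background on the other array allows, and 87 with signal in WT alone, 57 of them at least 2-fold lower. The faintest signal differs between the arrays, as given above, and this difference widens the bounds of the second set. No such count over the rest of the array is given here, so these counts cannot be called particular to intergenic regions. By probe, 37.7% of intergenic and 61.2% of other probes were above background in WT, and 41.2% and 64.0% in CREBH-Tg. The greatest bounds were at least 3.62-fold higher in CREBH-Tg for chr8:71526892-71527500 on strand R, where 1 probe read -2.28, and at least 13.7-fold lower for chr12:111617728-111665403 on strand F, where 1 probe read -0.77 in WT. Next on the higher side were chr2:150008075-150119782 and chr3:146014132-146014545, both on strand R, at least 3.43-fold and 3.38-fold. Next on the lower side were chr15:62164419-62165018 on strand F and chr4:119133352-119134522 on strand R, at least 10.6-fold and 9.67-fold.

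By chromosome the medians differed little, and chromosome X stood apart in its lower calls. Median ratios of region strands ran from -0.092 on chromosome 3 to -0.0066 on chromosome 10. On chromosome X 7 of 82 region strands were at least 2-fold lower (8.54%), and the share was 1.92% or less on each other chromosome. By probe, 11 of 177 were lower on chromosome X (6.21%), 9 of them in the run described below, and 0 higher. It also had the greatest share of dim region strands, 70.7%. Chromosome 15 had the most higher probes, 5, all of them from the region described above.

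**Figure D4:**
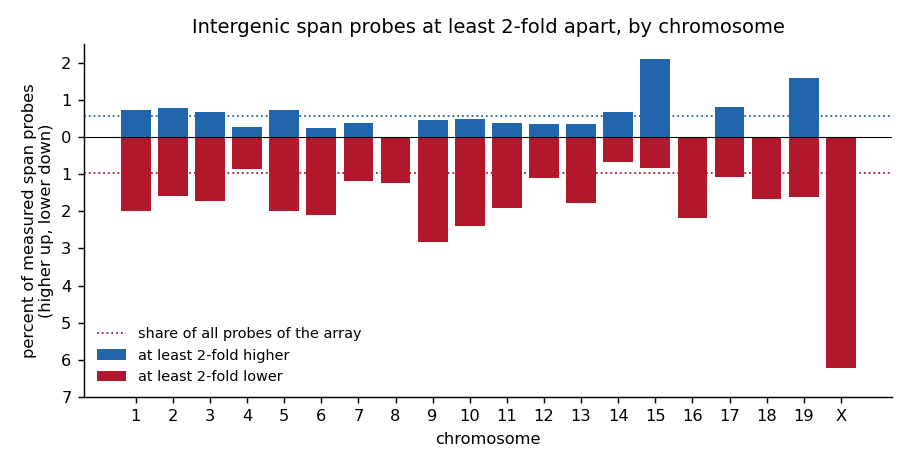
Percent of measured intergenic probes at least 2-fold higher (blue, upward) or lower (red, downward) in CREBH-Tg on each chromosome; dotted lines are the shares over all probes of the array, 0.566% and 0.975%. The lower bar of chromosome X, 6.21%, is the longest.

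The lower calls of chromosome X sat close together. Regions with a probe at least 2-fold apart were joined where they lay within 1 Mb, a rule set after the values had been seen, and only 1 run of at least 3 such regions came out, chrX:120353972-122630826. It spans 2.28 Mb and holds 12 regions. Of its 17 measured probes 15 were lower in CREBH-Tg and 9 at least 2-fold lower (52.9%), with a median of -1.22. Of the other 160 measured probes of chromosome X, 2 were at least 2-fold lower (1.25%), with a median of -0.027. The run was drawn around probes at least 2-fold apart, so both shares follow from the rule and are a description only. Both measured probes of chrX:120590872-120598071 on strand R read -2.39 and -2.02 in WT and -3.91 and -3.60 in CREBH-Tg, ratios of -1.52 and -1.58. A pair from chrX:120812236-121038407 on strand R read -2.18 and -1.73 in WT and -4.01 and -3.55 in CREBH-Tg, ratios of -1.83 and -1.81. Strand F was lower too, with -1.42 at chrX:121493684-121500532 and -1.34 at chrX:122623597-122630826. All but 1 of the 17 were dim. The exception, chrX:120963050-120963598 on strand F, read 3.51 in WT and 3.82 in CREBH-Tg. A further 6 probes of the run were above background in WT alone and 0 in CREBH-Tg alone. Under normexp 14 of the 17 were lower, and 0 were at least 2-fold lower. Its offset of 50 pulls dim ratios toward 0, so this count cannot tell a lost difference from a compressed one. Whether these probes share sequence with each other was not tested, since probe sequences were not used here.

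**Figure D5:**
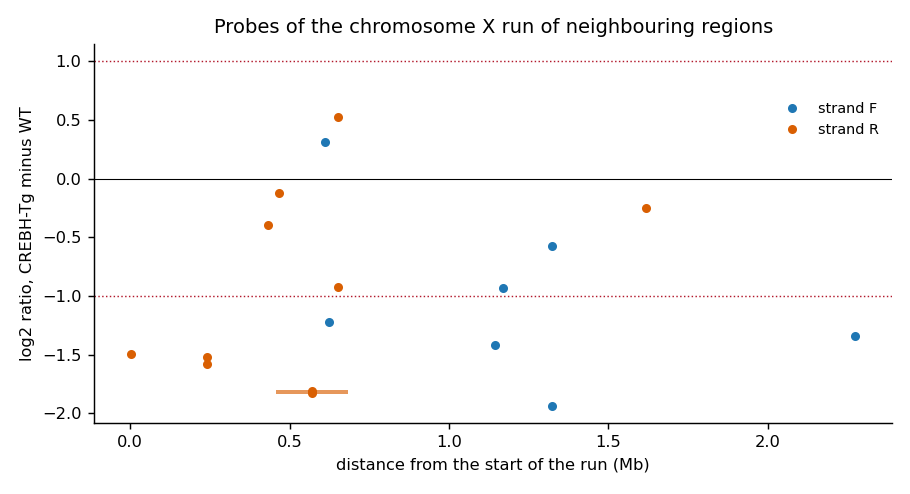
Log2 ratio (CREBH-Tg minus WT) of the 17 measured probes of the chromosome X run against the distance from its start in Mb. Points mark the middle of the span that names each probe, with a line for its length, blue for strand F and orange for strand R; red dotted lines mark 2-fold, and 9 points lie below the lower line.

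Strand made little difference. Of the region strands, 69.0% were measured on F and 69.0% on R, the medians were -0.052 and -0.048, and 13 and 16 were at least 2-fold lower. Probes of both strands are present in 1101 regions. Both strands were measured in 682 of these, 1 strand in 333 and neither in 86. Across the 682 regions, which share both arrays and their scaling, the ratios of the opposite strands had r = 0.025 and rho = 0.031, and both lay on the same side of 0 in 368 (54.0%). In 13 of the 682 at least 1 strand was 2-fold apart, and in 0 were both.

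Region strands of longer regions were measured more often. In 4 equal classes of region length, 52.0% of region strands were measured in the shortest (62 to 5826 bases), 73.5% and 72.9% in the middle classes and 77.8% in the longest (31276 bases and more). The shortest class had a median of 3 probes per region strand and the others 5, so length and the number of chances to be measured go together, and by probe the shares were 27.8%, 36.8%, 36.4% and 36.8%. At least 2-fold lower were 2.55%, 1.31%, 0.661% and 0.927% of measured region strands, from the shortest class to the longest. The share resting on 1 probe went from 63.9% in the shortest class to 31.8% in the longest. The share of dim region strands was 64.8%, 59.6%, 54.9% and 53.0% in the same order. The part of either in the lower calls was not tested.

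Noncoding RNAs with a gene symbol on the same arrays give a scale for these values. Of 23 listed, 14 had a probe and 12 were measured, 7 of them lower in CREBH-Tg, with 0 at least 2-fold apart and a median of -0.18. Malat1, an RNA of nuclear speckles, read -0.31 in WT and -1.004 in CREBH-Tg, a ratio of -0.69, and Neat1, the scaffold of paraspeckles, read 3.26 and 2.66, a ratio of -0.60. Snhg3, a host of small nucleolar RNA, was at -0.59 and Snhg1 at 0.35. Whether any span overlaps these genes was not tested, because no gene positions on mm9 were used here.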

How the data were processed

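Total liver RNA of 2 pools, 1 per genotype, was measured on 1-colour Agilent arrays. Per the file headers, Agilent Feature Extraction 10.10.1.1 quantified the spots and the annotation is on mm9. The deposited processed values are linear intensity, from which the authors' scanner software had subtracted background within each array, per the file headers. The authors' value table holds the same intensity times 1 constant per array. Log2 values were computed here from the deposited intensity, minus each array's 75th percentile over non-control spots. On both arrays, 300 spots marked as outliers were left out (0 of them intergenic), and spots of 1 probe were averaged. Probes count as measured when well above background on both arrays.

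No test was run. Named regions are the 10 highest, 10 lowest and 10 brightest region strands, the 5 highest and 5 lowest above the median signal, those of at least 3 probes past 2-fold, and the 3 greatest bounds on each side. A bound sets the signal against the higher of the other array's faintest signal above background and the probe's own. Members and lists were chosen with earlier results of these data known. The alternatives were 4 scalings, the value table, normexp (offset 50, on the median spot signal), 2 filters, 2 thresholds and 4 ways to join probes. Neighbouring genes were not compared, since the files read here give no positions for gene probes. Genes were named by accession through a RefSeq table of GRCm38.p6, for 27233 probes. In a check on simulated data for CREBH-Tg against WT over 2295 region strands, 198 of 200 changed ones and 0 of 2095 others were called, with spot noise alone. Every planted change was above the 2-fold threshold and equal for all probes of a region strand. The check therefore covers the counting only and says nothing of how reliable the calls in the real data are. Python 3.11.15, numpy 2.4.6, pandas 2.3.3, matplotlib 3.10.9, R 4.3.3 and limma 3.58.1 were used.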

Additional observations from a re-analysis of the deposited data

How the results depend on the processing

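With 1 array per genotype, the signal over background limits all values, and the dim regions most. The counts of region strands at least 2-fold apart, 5 higher and 29 lower, and the median of -0.049 depended on the treatment of faint signal. Normexp, whose offset pulls the ratios of dim probes toward 0, left 4 higher and 1 lower. With no filter on dim probes there were 26 higher and 123 lower with a median of -0.19, while the median of all units was -0.062. With a stricter filter there were 6 higher and 5 lower. Of the 34 region strands past 2-fold, 5 were also past it under normexp and 8 under the stricter filter. The stricter filter takes out dim probes, so a region strand can leave the count because it was no longer measured. Of the 16 named region strands past 2-fold, 7 were still measured under it, and all 7 stayed past 2-fold. A threshold of 1.5-fold gave 22 and 101, and 3-fold gave 3 and 7. The brightest probe of each region strand gave 14 higher and 39 lower, joining both strands gave 3 and 20, and probes taken singly gave 31 higher and 99 lower of 5717 measured. Without the filter, where unmeasured probes enter the mean, 9 of the 38 named region strands changed sign. Of those past 2-fold these were chr17:9898206-9919226 on strand R, at -0.21, and chr5:33773842-33942967 on strand F, at -0.15. Quantile normalization and loess each turned 3 of the 38, all of them among the brightest. The cause of the other shifts was not tested. Higher calls made up 14.7% of all calls, 80.0% under normexp and 54.5% under the stricter filter. No paired analysis was possible because each genotype has 1 array.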

Other observations

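A further 13 probes are named by 3 spans without a strand and were left out of all counts above. All 5 probes of chr17:12941161-12944859 were measured, with ratios from -0.25 to 0.52 and a mean of 0.11 ± 0.31 (SD over 5 probes). In chr6:52032838-52033444 1 of 5 probes was measured, at 0.25, and in chr3:34856791-34869544 0 of 3.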
